A study of Homo sapiens with 20 samples.

Results

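The SLAM family is a group of immune cell surface receptors. Here 7 of its genes were taken as members, with 22 probe sets on these arrays: SLAMF7 (3 probe sets), SLAMF1 (3), SLAMF6 (1), SLAMF8 (2), LY9 (3), CD84 (8) and CD244 (2). Their relatives CD48 and SLAMF9 were not among the members and are given apart. A probe set is the group of short probes that together report 1 transcript or group of transcripts. Members were all probe sets of the 54675 on the Affymetrix HG-U133 Plus 2.0 array whose only gene symbol in the platform annotation was one of these names, and each was kept on its own because those of SLAMF7 differ. SLAMF7 was chosen by its change in intensity in the EVI1-expressing cells at 24 and 48 h, so those values and the ones of the control lines are given for it without a test. The other 6 genes entered by family name.

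SLAM receptors carry extracellular immunoglobulin domains. Most of them bind a second copy of themselves on a neighboring cell, whereas CD244 binds CD48. The cytoplasmic tails of SLAMF1, LY9, CD244, CD84, SLAMF6 and SLAMF7 hold tyrosine switch motifs. Depending on the receptor, these motifs recruit SAP (SH2D1A), EAT-2 (SH2D1B) or both, small adaptors that can turn the signal from inhibiting to activating. Where these adaptors are missing, the motifs recruit phosphatases. SLAMF8 has a short tail without these motifs. In myeloid cells, the family is known for roles in phagocytosis, cytokine release and the handling of phagosomes, and SLAMF7 is widely known as a plasma cell and natural killer cell antigen.

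U937T is a derivative of the human monocytic cell line U937 in which a transgene is silent while tetracycline (tet) is in the medium and is transcribed after its removal. The EVI1-expressing cells were U937T_EVI1-HA clones E10 and E14, which carry HA-tagged EVI1, a zinc finger transcription factor of myeloid leukemia, and they were harvested without tet and with tet at 6, 12, 24 and 48 h. The control lines were U937T_vec clone P2, which carries the empty vector, and parental U937T cells, harvested without tet and with tet at 48 h. Cells of the EVI1 clones were washed before tet was withdrawn or added back. Each line, time and condition was hybridised once, and the 20 arrays therefore comprised 16 of the EVI1 clones and 4 of the control lines. E10, E14 and P2 are single clones each, so a difference between kinds of line rests on 2 lines against 2.

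The induction was visible in MECOM, the gene of EVI1 (probe set 221884_at), whose log2 intensity was between 1.38 and 3.38 higher without tet than with tet in the EVI1 clones, against a change of -0.99 in P2 and 0.05 in U937T. The array medians lay between 5.25 and 5.35. The difference between the 3 prime and 5 prime control probe sets of actin and GAPDH, a measure of RNA integrity, was between 0.19 and 1.52 (median 0.71), with the E14 arrays at 24 h at 1.40 without tet and 1.52 with tet and the E14 array at 12 h with tet at 1.02. The 2 U937T arrays lay at 0.735 without tet and 1.06 with tet. Of 13 probe sets of myeloid marker genes, 8 lay above the array median, a description of probe signal alone. Of those of T and NK cell markers, 6 of 18 did, and their mean level was between 5.05 and 5.19 in all 10 groups. For B and plasma cell markers the numbers were 4 of 14 and 4.63 to 4.73. The part of such markers in the results below was not tested. Bulk RNA of a culture cannot tell apart fewer cells that transcribe a gene and less RNA per cell.

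Regulatory sequence was at hand for 4 of the members, namely the 250 bases before the transcription start site of SLAMF1, SLAMF6, SLAMF8 and CD244 (RefSeq, GRCh38.p14). They are shown for the 3 of these genes with a probe set that changed at 48 h, CD244 in the one direction and SLAMF8 and SLAMF1 in the other, and each run is given 5′ to 3′ on the strand of its gene with matches of a searched motif in capitals.
CD244 (chr1:160862888-160863137, minus strand): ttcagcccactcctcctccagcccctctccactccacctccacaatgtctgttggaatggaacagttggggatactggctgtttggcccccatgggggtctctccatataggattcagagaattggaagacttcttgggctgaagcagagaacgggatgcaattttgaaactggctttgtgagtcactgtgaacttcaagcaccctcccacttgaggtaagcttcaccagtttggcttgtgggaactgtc
SLAMF8 (chr1:159826623-159826872, plus strand): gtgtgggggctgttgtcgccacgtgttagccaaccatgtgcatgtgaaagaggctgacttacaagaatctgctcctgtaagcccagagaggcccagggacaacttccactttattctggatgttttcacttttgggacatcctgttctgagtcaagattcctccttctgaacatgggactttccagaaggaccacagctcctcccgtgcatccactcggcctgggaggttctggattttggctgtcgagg
SLAMF1 (chr1:160647045-160647294, minus strand): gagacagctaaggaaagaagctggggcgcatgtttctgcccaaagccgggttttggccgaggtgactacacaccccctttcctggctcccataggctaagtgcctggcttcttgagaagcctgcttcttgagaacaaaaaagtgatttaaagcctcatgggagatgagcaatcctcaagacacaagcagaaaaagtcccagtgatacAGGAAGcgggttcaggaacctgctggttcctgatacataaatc

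The windows were searched on both strands for GACAAGATA, a sequence bound by the first zinc finger domain of EVI1, GAAGATGAG, bound by its second domain, AGATAA, a core of GATA factors, and AGGAAG, a core of ETS factors. No search motif contains another. Neither EVI1 sequence was found in any of the 4 windows. Among 35116 promoter windows of the same length, 0.0854% held GACAAGATA and 0.265% held GAAGATGAG. The ETS core was found once in SLAMF1, from position -43 before the start site, and once in SLAMF6, from position -35, and 28.7% of all windows held it. The GATA core was found in SLAMF6 alone, at position -161 on the reverse strand, against 9.17% of all windows. These are matches of letters, and they say nothing of factors outside the windows or of imperfect sites.

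Signal on each array was described by the percentile of a probe set among all 54675, since the files hold no detection call. Probes differ in how strongly they bind, so a percentile tells how bright a probe set was and gives no order of transcript amounts between genes. Of the 22 probe sets, 4 were above the array median on all 20 arrays, namely CD84 205988_at and 230391_at, LY9 231124_x_at and CD244 220307_at. Their median percentiles were 79.9 for CD84 205988_at, 78.4 for CD244 220307_at, 73.5 for CD84 230391_at and 67.1 for LY9 231124_x_at. Another 8 probe sets were below the array median throughout, among them CD84 211191_at at a median percentile of 17.9. SLAMF6 1552497_a_at lay at 47.9. All 22 passed the intensity filter of the tests, a mean log2 intensity of at least 3.

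SLAMF7, a self-binding receptor, was higher without tet in both EVI1 clones at 24 and 48 h by its probe set 222838_at. In E10, log2 intensities without tet were 4.60, 4.60, 5.81 and 6.52 at 6, 12, 24 and 48 h, against 4.51, 4.73, 4.55 and 4.59 with tet. In E14, they were 4.57, 4.86, 6.13 and 6.64 without tet, against 4.83, 4.62, 4.28 and 4.27 with tet. The 4 arrays of the EVI1 clones without tet at 24 and 48 h were thus the highest of the 20, and the other 16 did not exceed 4.86. In P2, the probe set read 4.65 without tet and 4.68 with tet, and in U937T 4.81 without tet and 4.56 with tet.

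The change of SLAMF7 222838_at at 48 h was 3.80-fold in E10 and 5.17-fold in E14, and at 24 h it was 2.39-fold in E10 and 3.60-fold in E14. In the fit over all arrays, the mean change of the EVI1 clones was 1.55 at 24 h and 2.15 at 48 h on the log2 scale (SE 0.16 each, n = 2 clones). The change of the EVI1 clones at 48 h exceeded that of the control lines by 2.04 (SE 0.23), which is a description, since these values chose the gene. At 6 h the change was -0.08 (95% interval -0.44 to 0.27, adjusted p = 0.985 by limma) and at 12 h 0.05 (-0.30 to 0.41, adjusted p = 0.986), both tested independently of the choice. With tet at 48 h, the mean of the EVI1 clones lay 0.19 below that of the control lines (-0.19, SE 0.13, 2 lines each), given without a test because these arrays are among those that chose the gene.

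The other SLAMF7 probe sets showed less. Probe set 219159_s_at was dim, with median percentile 22.1, and its 48 h values without tet of 3.98 in E10 and 4.03 in E14 were the highest of the 20 arrays, against 3.54 and 3.32 with tet. In the control lines it read 3.40 in P2 and 3.34 in U937T without tet, against 3.53 and 3.43 with tet. At 24 h, where 222838_at had already moved, its changes were -0.04 in E10 and 0.11 in E14. Probe set 234306_s_at changed by 0.24 in E10 and 0.58 in E14 at 48 h, against 0.21 in P2 and 0.24 in U937T, so that E10 and the control lines overlapped. Pearson's r between the probe sets over the 20 arrays was 0.61 for 222838_at with 219159_s_at, 0.64 for 222838_at with 234306_s_at and 0.48 for the remaining pair.

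**Figure D1:**
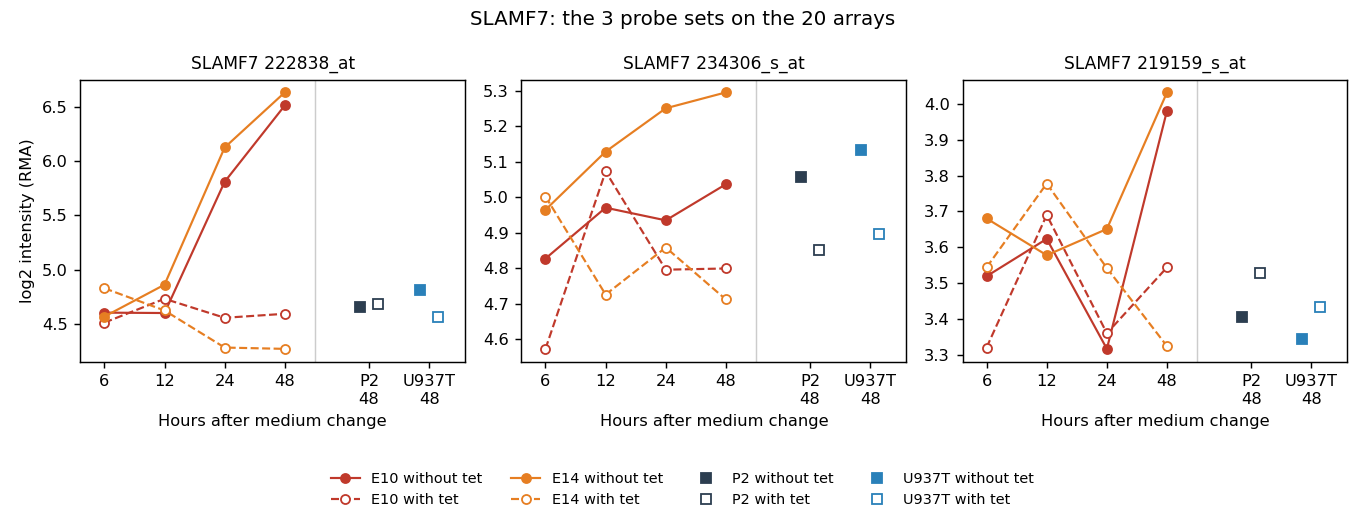
Log2 intensity of the 3 SLAMF7 probe sets (vertical axes, each with its own range) against hours after the medium change, with the control lines at 48 h on the right of each panel. Filled symbols are cultures without tet and open symbols cultures with tet, 1 array per point. Probe set 222838_at reached 6.52 in E10 and 6.64 in E14 at 48 h without tet, while 219159_s_at and 234306_s_at spanned only 0.72 over all arrays.

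The genes whose pattern over the 20 arrays was most like that of SLAMF7 222838_at were SHFL (Pearson's r = 0.97), AIM2 (0.97), MYOF (0.96), SAMD9L (0.96) and GRAMD1C (0.955). SHFL restrains programmed ribosomal frameshifting of viruses, AIM2 senses cytosolic DNA, MYOF acts in membrane repair and SAMD9L is an interferon-inducible regulator of growth. Their changes at 48 h without tet over with tet were 0.74, 1.27, 2.88, 1.71 and 3.04 in E10, in the same order, and between 0.91 and 3.13 in E14. In the control lines they were between -0.07 and 0.76. The genes were ranked by likeness to SLAMF7 222838_at over the same 20 arrays, those at 48 h included. Their changes at 48 h in both kinds of line were thus largely set by that ranking. They are given as a description and are no separate result. For 219159_s_at, the likeness was lower and the genes were others, led by PATL2 (r = 0.84), and for 234306_s_at it was led by SCAPER (r = 0.84). The arrays share lines and times, so these correlations are descriptions.

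No member probe set was called in the EVI1 clones at 6 or 12 h. At 6 h, limma called 0 of the 22 member probe sets (all 3 of SLAMF7 included), against 0 of 35610 overall (0%). At an unadjusted p under 0.05 there were 2 members and 1518 overall. At 12 h it again called 0 members, and 0 had an unadjusted p under 0.05, against 8 called overall (0.0225%, of which 0.014% higher and 0.00842% lower) and 1745 with an unadjusted p under 0.05. The member nearest to a call was LY9 210370_s_at, which at 6 h read 4.46 in E10 and 4.59 in E14 without tet, against 5.14 and 5.19 with tet (-0.64, SE 0.12, adjusted p = 0.968).

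At 24 h, 3 of the 19 probe sets of these genes were lower without tet and 0 were higher, which is 15.8% of them against 11.7% of all probe sets called by limma (6.34% lower, 5.39% higher). At 48 h, 9 were lower and 1 was higher, together 52.6% against 24.6% overall (11.5% lower, 13% higher), and 5 of the 6 genes had a called probe set. The median change of the 19 at 48 h was -0.44, against -0.03 over all probe sets tested. In the control lines, 2 of the 19 were higher and 1 was lower, 15.8% against 5.92% overall (3.31% higher, 2.61% lower). Probe sets of 1 gene share transcripts, so that the 19 are not independent.

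**Figure D2:**
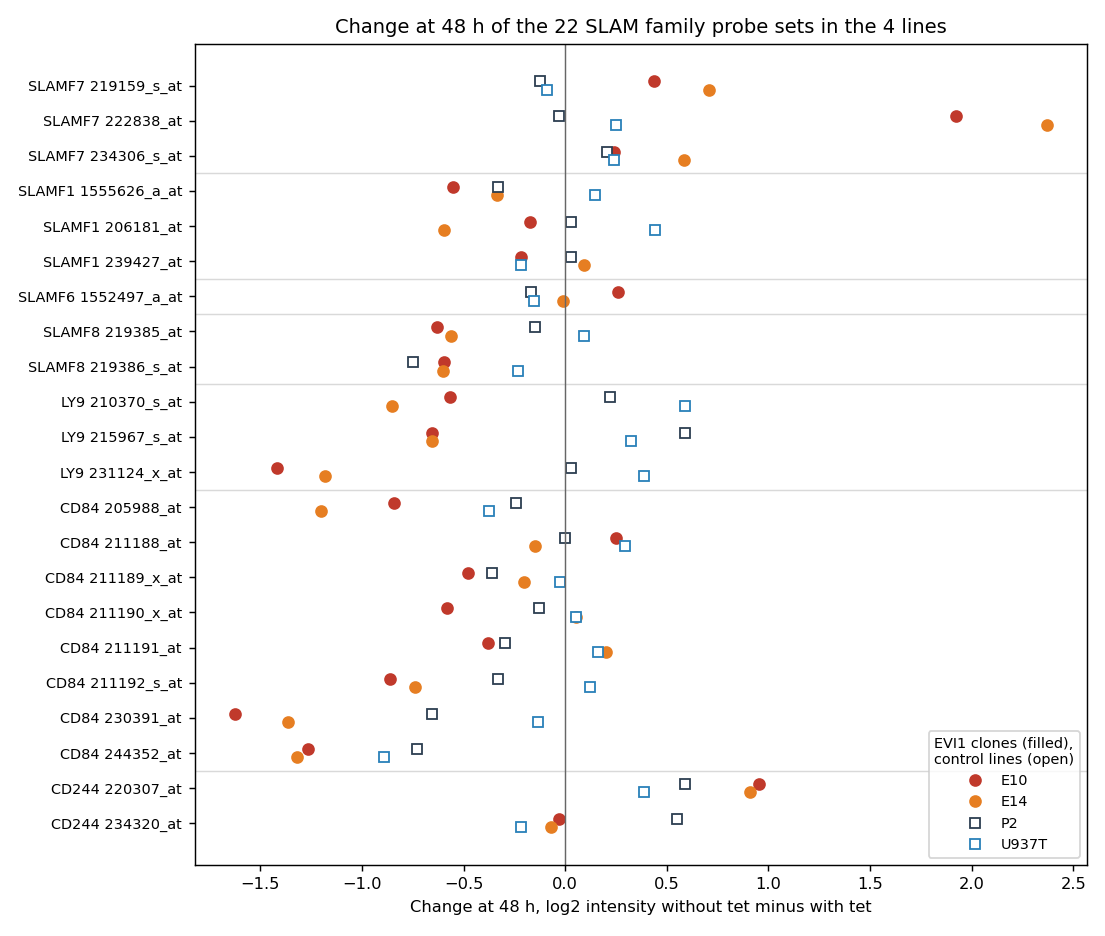
Change at 48 h (horizontal axis, log2 intensity without tet minus with tet) of each of the 22 member probe sets, 1 row per probe set and 1 point per line. Filled circles are the EVI1 clones E10 and E14 and open squares the control lines P2 and U937T. LY9 lies left of 0 in both EVI1 clones and right of 0 in both control lines in each of its 3 probe sets. For 231124_x_at in P2 the point is almost at 0 (0.03). CD244 220307_at lies right of 0 in all 4 lines.

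LY9, a self-binding receptor best known from lymphocytes, was lower without tet in the EVI1 clones by all 3 probe sets at 48 h. All 3 read higher without tet in both control lines, though 231124_x_at by only 0.03 in P2. Of the 3 mean changes of the control lines, 1 was called. By 231124_x_at, E10 read 6.57, 6.38, 5.96 and 5.55 without tet at 6, 12, 24 and 48 h, against 6.62, 6.65, 6.69 and 6.97 with tet. E14 read 6.73, 6.19, 5.74 and 5.81 without tet, against 6.56, 6.47, 6.62 and 7.0 with tet. The 4 arrays of the EVI1 clones without tet at 24 and 48 h were the lowest of all 20. At 48 h P2 read 6.97 without tet and 6.94 with tet, and U937T read 7.38 without tet and 7.0 with tet.

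LY9 231124_x_at thus fell by 0.80 at 24 h (SE 0.13, adjusted p = 0.00141 by limma) and by 1.30 at 48 h (SE 0.13, adjusted p = 9.29e-06, n = 2 clones). With tet it was 2.67-fold higher than without tet at 48 h in E10 and 2.27-fold higher in E14. The response at 48 h differed between the EVI1 clones and the control lines by -1.51 (95% interval -1.91 to -1.11, adjusted p = 0.000923 by limma).

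The other LY9 probe sets gave the same direction. By 215967_s_at, the EVI1 clones read 5.21 in E10 and 5.33 in E14 at 48 h without tet, against 5.87 and 5.98 with tet. The control lines read 6.37 in P2 and 6.33 in U937T without tet, against 5.79 and 6.00 with tet. The groups did not overlap: both EVI1 clones without tet were the lowest of the 8 arrays at 48 h and both control lines without tet the highest. The change was -0.66 in the EVI1 clones (adjusted p = 0.00137 by limma) and 0.46 in the control lines (adjusted p = 0.0463), and the difference between them was -1.11 (SE 0.17, adjusted p = 0.00404). The control-line call was lost without P2 (0.32, adjusted p = 0.414) and without U937T (0.59, adjusted p = 0.103). By 210370_s_at, a dimmer probe set, the change was -0.71 in the EVI1 clones (adjusted p = 0.000781) and the difference from the control lines -1.11 (SE 0.17, adjusted p = 0.00408).

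Over all members, 4 of the 19 probe sets of the 6 genes responded differently in the EVI1 clones and the control lines by this test of the difference, all toward lower values in the EVI1 clones, which is 21.1% against 2.95% of all probe sets (1.57% lower, 1.38% higher). They were the 3 of LY9 and CD84 230391_at. With either clone left out, 0 of the 19 were called in this difference, with adjusted p for LY9 231124_x_at of 0.0871 without E10 and 0.054 without E14 and differences of -1.39 and -1.63. The 3 LY9 probe sets were called without P2, and 210370_s_at was not called without U937T (-0.93, adjusted p = 0.0547).

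CD84, a self-binding receptor of platelets and myeloid cells, had 8 probe sets, and the 3 bright ones fell at 48 h in the EVI1 clones. By 230391_at, the EVI1 clones read 6.04 in E10 and 5.96 in E14 at 48 h without tet, against 7.67 and 7.32 with tet. These were the lowest of the 20 arrays, and the next were the control lines without tet at 6.41 in P2 and 6.43 in U937T, against 7.07 and 6.56 with tet. At 6, 12 and 24 h, E10 read 7.76, 7.72 and 7.50 without tet, against 7.83, 7.83 and 7.93 with tet, and E14 read 7.27, 8.0 and 7.02 without tet, against 7.36, 7.49 and 7.23 with tet. Up to 24 h, the conditions overlapped across the clones.

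The change of CD84 at 48 h in the EVI1 clones was -1.49 by 230391_at (SE 0.19, adjusted p = 7.15e-05 by limma), -1.29 by 244352_at (SE 0.16, adjusted p = 5.91e-05) and -1.02 by 205988_at (SE 0.15, adjusted p = 0.000167). These 3 probe sets followed each other over the 20 arrays with Pearson's r between 0.82 and 0.95. Of the dimmer 5, 211192_s_at was called as well (-0.80, adjusted p = 0.0153), 211189_x_at and 211190_x_at changed by -0.34 and -0.27 without a call, and 211188_at and 211191_at, both below the array median throughout, by 0.05 and -0.09.

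CD84 was lower without tet in both control lines too by each of its bright probe sets, and 1 of its 8 was called. The changes were -0.24 in P2 and -0.38 in U937T by 205988_at and -0.65 and -0.13 by 230391_at, neither called. By 244352_at, P2 read 5.52 and U937T 5.55 without tet, against 6.25 and 6.44 with tet (-0.81, SE 0.16, adjusted p = 0.0112 by limma), a call lost without P2 (adjusted p = 0.104) and without U937T (0.142). The EVI1 clones read 5.42 in E10 and 5.20 in E14 at 48 h without tet, against 6.69 and 6.51 with tet, and the difference between the responses was -0.48 (95% interval -0.97 to 0.02, adjusted p = 0.369). For 205988_at it was -0.71 (95% interval -1.16 to -0.27, adjusted p = 0.097). For 230391_at it was -1.10 (95% interval -1.69 to -0.51, adjusted p = 0.0484). That call at the threshold was lost without E10, E14, P2 or U937T (adjusted p between 0.0627 and 0.341) and with only the arrays at 48 h (adjusted p = 0.0752).

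For CD84, limma called 0 of 8 probe sets at 24 h (adjusted p between 0.365 and 0.994), and 0 had an unadjusted p under 0.05. Of all probe sets, 11.7% were called at 24 h and 8305 of 35610 had an unadjusted p under 0.05. The response of the EVI1 clones at 48 h was more negative than that at 24 h for 205988_at (-1.0, SE 0.21, adjusted p = 0.0283 by limma) and for 244352_at (-1.15, SE 0.23, adjusted p = 0.0257), a contrast added after the values were seen. Over all members of the 6 genes, 3 of 19 were called in this contrast, 15.8% against 1.63% of all probe sets (1.01% higher, 0.621% lower). The third was CD244 220307_at in the opposite direction. All 3 lost the call once the 4 arrays of E14 from 12 and 24 h were left out (adjusted p between 0.103 and 0.231), and without E10 or E14. With the 3 prime to 5 prime difference as a covariate, 4 were called, these 3 and CD84 230391_at (-1.05, adjusted p = 0.00895). That count was not compared with the share over all probe sets in the same setting.

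CD244, the receptor of CD48, was the 1 member of the 6 that rose in the EVI1 clones at 48 h. By 220307_at, E10 read 7.61, 7.68, 8.07 and 8.96 without tet at 6, 12, 24 and 48 h, against 7.54, 7.61, 7.91 and 8.0 with tet. E14 read 7.71, 7.78, 8.19 and 9.01 without tet, against 7.74, 7.96, 8.03 and 8.10 with tet. P2 read 8.42 without tet and 7.83 with tet, and U937T 8.25 without tet and 7.86 with tet. The order at 48 h was thus both EVI1 clones without tet, both control lines without tet and then all 4 lines with tet, with no overlap between these 3 sets.

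The change of CD244 220307_at at 48 h was 0.93 in the EVI1 clones (SE 0.10, adjusted p = 1.36e-05 by limma) and 0.49 in the control lines (SE 0.10, adjusted p = 0.0121), and the difference between them was 0.44 (95% interval 0.14 to 0.74, adjusted p = 0.13). In the EVI1 clones it was 0.77 larger at 48 h than at 24 h (SE 0.14, adjusted p = 0.0155). With tet, the probe set was also higher at 48 h than at 6 h in the EVI1 clones, by 0.41 (SE 0.10, adjusted p = 0.0289), the only 1 of the 19 called for time in culture (5.26% against 6.19% of all probe sets, 2.8% higher and 3.39% lower). That last call was lost with each array centred on its median (adjusted p = 0.0577), with the E14 arrays of 12 and 24 h left out (0.0591), and without E10 (0.713) or E14 (0.387). The control-line call was lost without P2 (adjusted p = 0.213), without U937T (0.0518) and with only the arrays at 48 h (0.0892). The second CD244 probe set, 234320_at, lay at a median percentile of 20.9 and changed by -0.05 in the EVI1 clones at 48 h (95% interval -0.47 to 0.36).

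**Figure D3:**
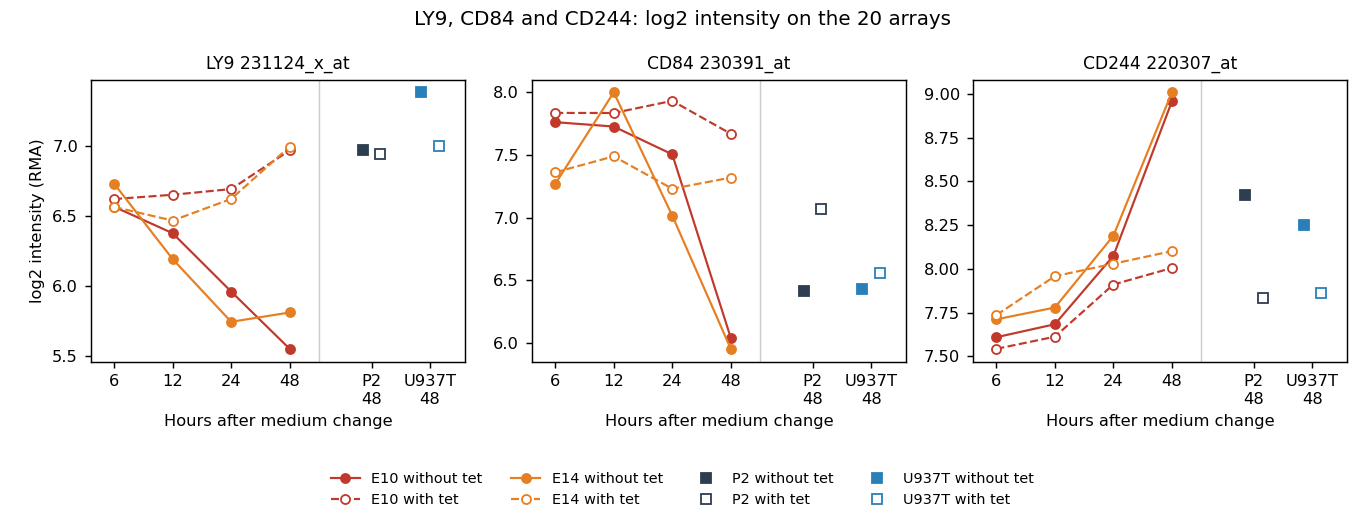
Log2 intensity (vertical axes, each with its own range) of LY9 231124_x_at, CD84 230391_at and CD244 220307_at against hours after the medium change, with the control lines at 48 h on the right. Filled symbols are cultures without tet and open symbols cultures with tet, 1 array per point. In the EVI1 clones, the conditions did not overlap from 12 h on for LY9, from 24 h on for CD244 and at 48 h for CD84, which read 6.04 and 5.96 without tet, against 7.67 and 7.32 with tet.

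SLAMF8, the receptor with a short tail that in mice restrains the phagocyte oxidase, gave 1 call at each of 2 times, by different probe sets. By 219386_s_at, E10 read 3.66 and E14 3.97 at 24 h without tet, against 4.55 and 5.16 with tet (-1.04, SE 0.23, adjusted p = 0.0109 by limma). At 48 h it read 3.77 in E10 and 3.64 in E14 without tet, against 4.37 and 4.24 with tet, and 3.90 in P2 and 3.91 in U937T without tet, against 4.65 and 4.14 with tet. The change at 48 h was -0.60 in the EVI1 clones (adjusted p = 0.0851) and -0.49 in the control lines (adjusted p = 0.284). By 219385_at, the change at 48 h was -0.60 in the EVI1 clones (SE 0.17, adjusted p = 0.0182) and -0.03 in the control lines, with a difference of -0.57 (95% interval -1.08 to -0.06, adjusted p = 0.279). Both probe sets were below the array median on all 20 arrays.

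SLAMF1, a self-binding receptor that is also a microbial sensor in macrophages, and SLAMF6, a self-binding receptor of T, B and NK cells, changed little. SLAMF1 1555626_a_at read 3.51 in E10 and 3.40 in E14 at 48 h without tet, against 4.06 and 3.73 with tet (-0.44, SE 0.14, adjusted p = 0.0287 by limma). Its change was -0.55 in E10 and -0.34 in E14, against -0.33 in P2 and 0.15 in U937T, so that E14 and P2 were alike. This probe set was dim, at a median percentile of 25.8 and below the array median on all 20 arrays. SLAMF1 206181_at was lower without tet in both EVI1 clones at 48 h and higher in both control lines, with a difference of -0.62 (95% interval -1.18 to -0.06, adjusted p = 0.281). SLAMF1 239427_at, at a median percentile of 52.1, changed by -0.06 in the EVI1 clones (95% interval -0.33 to 0.21). SLAMF6 1552497_a_at read 5.15 in E10 and 5.21 in E14 at 48 h without tet, against 4.90 and 5.22 with tet, and 5.02 in P2 and 5.21 in U937T without tet, against 5.19 and 5.36 with tet. Its change of 0.12 in the EVI1 clones had a 95% interval of -0.18 to 0.43.

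**Figure D4:**
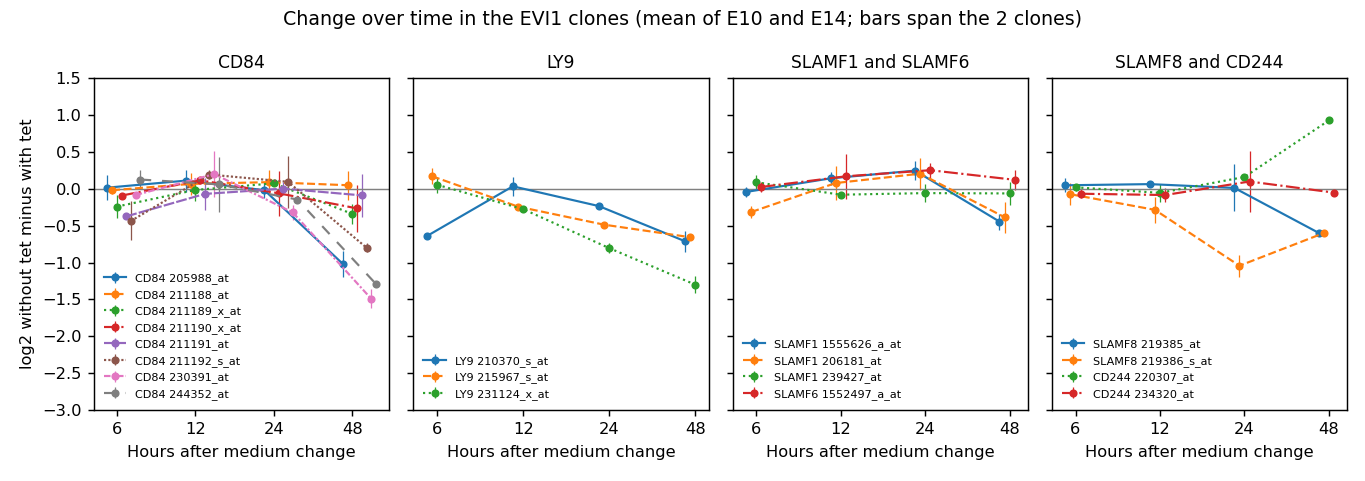
Change in the EVI1 clones (vertical axis, log2 intensity without tet minus with tet) at 6, 12, 24 and 48 h for the 19 probe sets of CD84, LY9, SLAMF1, SLAMF6, SLAMF8 and CD244. Points are the mean of E10 and E14 and bars span the 2 clones. LY9 231124_x_at was lower from 24 h on (-0.80, then -1.30 at 48 h), and the bright CD84 probe sets and CD244 220307_at moved at 48 h.

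Of the 10 calls at 48 h in the EVI1 clones, 6 remained without E10 and 5 without E14. The 5 that held in both cases were LY9 231124_x_at, CD84 205988_at, 230391_at and 244352_at, and CD244 220307_at. At 24 h, 1 of the 3 calls remained without E10, that of SLAMF8 219386_s_at, and 0 without E14 or with its arrays of 12 and 24 h left out. With a clone left out, the remaining one was assumed to vary like the control lines.

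Between E10 and E14, over all 8 matched cultures, limma called 0 of the 19 probe sets of the genes other than SLAMF7, against 0.104% of all (0.0702% higher in E10, 0.0337% lower). At an unadjusted p under 0.05 there were 6 of the 19 (31.6%) and 6539 overall (18.4%). The largest differences were those of CD84 211192_s_at (0.47 higher in E10, SE 0.11, adjusted p = 0.0913) and CD84 205988_at (0.37 higher in E10, SE 0.07, adjusted p = 0.0662). Between the EVI1 clones and the control lines with tet at 48 h, 0 of the 19 and 0 of 35610 probe sets (0%) were called by limma, while 2 of the 19 and 3402 of all probe sets had an unadjusted p under 0.05. The larger of the 2 was CD84 230391_at at 7.67 in E10 and 7.32 in E14, against 7.07 in P2 and 6.56 in U937T (0.68, 95% interval 0.29 to 1.06, adjusted p = 0.386).

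CD48, the ligand of CD244, rose at 48 h in the EVI1 clones by both probe sets. By 204118_at, it read 10.14 in E10 and 10.11 in E14 without tet, against 9.07 and 9.29 with tet (0.95, SE 0.18, adjusted p = 0.00157 by limma), and 8.92 in P2 and 9.09 in U937T without tet, against 8.67 and 8.48 with tet (0.43, adjusted p = 0.205). The difference between the responses was 0.51 (SE 0.25, adjusted p = 0.39). SLAMF9, a relative without a known ligand, was between 3.74 and 5.43 over both of its probe sets and was not called in the EVI1 clones at 48 h. The adaptor SH2D1A had a probe set at 2.77 to 3.32, and 3 of the kind that can pick up related transcripts (suffix _x_at) at 5.16 to 6.07. SH2D1B was between 2.88 and 3.92. Neither adaptor was called at 48 h in the EVI1 clones, where SH2D1A 210116_at and SH2D1B 1553176_at, under the intensity filter, were not tested.

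The signaling and phagocytosis partners of the family, with CD48, SLAMF9, SH2D1A and SH2D1B counted among them, were 35 genes with 95 tested probe sets. In the EVI1 clones at 48 h, 30 probe sets of 17 genes (31.6%, against 13% of all probe sets) were higher by limma, 4 of 2 genes (4.21%, against 11.5%) were lower and the other 61 were not called. The median over the 95 was 0.27, against -0.03 over all. At 24 h, 7 were higher and 1 was lower (8.42% against 11.7%), and at 6 and 12 h 0 were called. The 4 lower ones were those of PLCG1, a phospholipase (-0.56 for 202789_at, adjusted p = 0.00282), and of the kinase SYK (-0.38 for 226068_at, adjusted p = 0.0251). In the control lines, 12 were higher and 0 lower (12.6% against 5.92%). In the difference of the responses, 2 of the 95 were called, a share (2.11%) no larger than that of all probe sets (2.95%), both higher in the EVI1 clones: ITGAM, the integrin chain that pairs with ITGB2 and is reported to act with SLAMF7 in phagocytosis by mouse macrophages (1.35, SE 0.22, adjusted p = 0.00473), and TYROBP, an activating adaptor (1.66, SE 0.23, adjusted p = 0.00215). Both rose in the control lines too, ITGAM by 3.92 and TYROBP by 2.27. These values are of ITGAM 205786_s_at and TYROBP 204122_at, and the other ITGAM probe set, 205785_at, was not called (difference of the responses -0.19, adjusted p = 0.761).

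All 7 member genes lie on the long arm of chromosome 1, in the order SLAMF8, SLAMF6, CD84, SLAMF1, SLAMF7, LY9 and CD244, with CD48 between SLAMF1 and SLAMF7. The neighbors SLAMF7 and LY9 moved in opposite directions in the EVI1 clones. Of the 39 tested probe sets of 19 other genes in and around this interval, 6 were higher and 1 was lower in the EVI1 clones at 48 h (17.9%, against 24.6% of all probe sets), and 1 differed between the responses of the EVI1 clones and the control lines (2.56% against 2.95%). It was ITLN1, an intelectin next to CD244, at 9.73 in E10 and 9.46 in E14 at 48 h without tet, against 6.04 and 5.90 with tet, and at 6.58 in P2 and 7.01 in U937T without tet, against 5.66 and 5.73 with tet (difference of the responses 2.52, SE 0.22, adjusted p = 0.000109). ITLN1 was singled out after its values were seen. The 19 other genes include CD48 and SLAMF9, and both CD48 probe sets are among the 6 higher ones. These are the CD48 calls given above, which are counted with the partners as well.

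**Figure D5:**
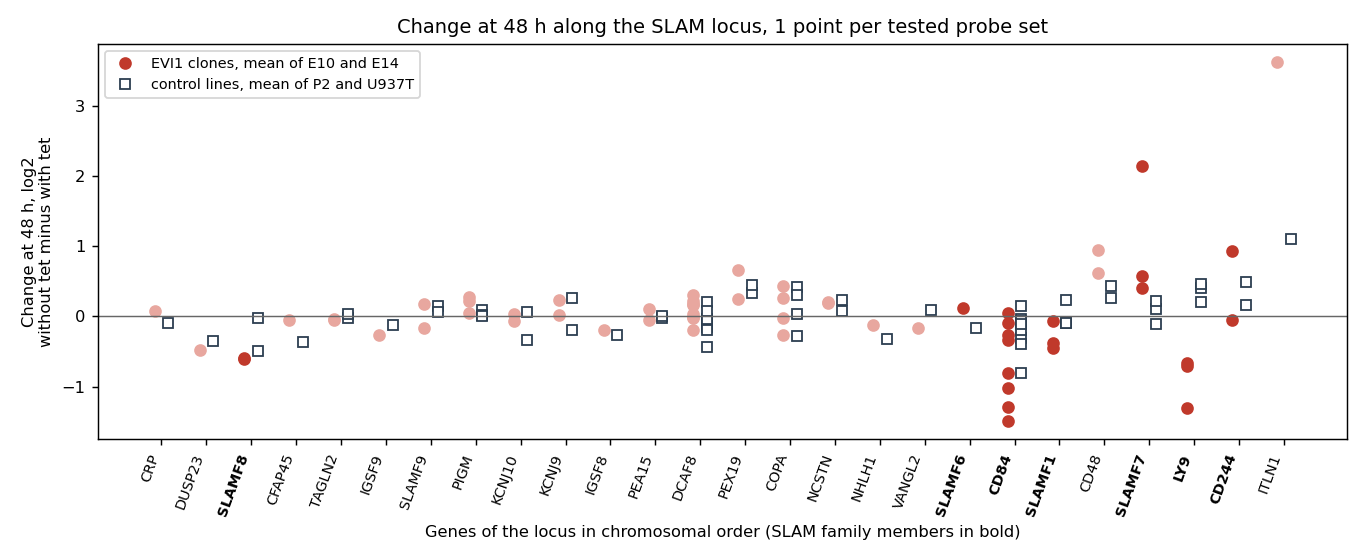
Change at 48 h (vertical axis, log2 intensity without tet minus with tet) of the 61 tested probe sets of 26 genes in their order along the chromosome, spaced evenly. Circles are the mean of E10 and E14 (dark for SLAM family members, pale for other genes) and open squares the mean of P2 and U937T. SLAMF7 222838_at at 2.15, among the values that chose the gene, stands beside LY9 between -1.30 and -0.66, and ITLN1 at 3.62 lies at the right end.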

How the data were processed

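RNA of 20 cultures was hybridised to Affymetrix HG-U133 Plus 2.0 arrays. The deposited values are log2 intensities of 54675 probe sets, made by the authors with Robust Multi-array Analysis (background correction, quantile normalisation and median polish). Quantile normalisation gives all arrays nearly the same distribution, so a shift of total RNA is not visible. Intensities are comparable between arrays and not between probe sets, and the number of arrays limits the precision. The tests ran over the 35610 probe sets with 1 gene symbol that passed an intensity filter. Their mean of the arrays with and without tet reached 3 (log2) in each EVI1 clone at 24 and 48 h and in each control line at 48 h. Another 1801 probe sets had several symbols and 11777 none.

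A linear model with the 10 groups of line kind, time and tet and the cell line as a block was fitted (R 4.3.3, limma 3.58.1), and p-values were adjusted by Benjamini-Hochberg over all 35610 (call: adjusted p under 0.05, two-sided). The comparison of line kinds with tet used the arrays at 48 h without the block. The block is the cell line named in the labels, and the same replicate number marks the same line only among the EVI1 clones or among the control lines. Deviations of the lines correlated with a median r of 0.11 for the EVI1 clones (28 pairs of groups, -0.22 to 0.64) and of -0.24 for the control lines. Each line, time and condition has 1 array, and the block takes up constant differences between lines. With the block, p-values therefore measure the spread left between the cultures of a group, with 8 residual degrees of freedom shared by all groups. As 16 of the 20 arrays are of the EVI1 clones, p-values of the control lines rest mostly on the spread of the EVI1 clones. Without the block, they measure the spread between lines and cultures. The fit was tested on simulated data.

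The text names all member probe sets, CD48, SLAMF9, SH2D1A, SH2D1B, partners called in the difference of responses and the 5 genes most like each SLAMF7 probe set (the leading 1 for the dimmer probe sets). PLCG1, SYK and ITLN1 were named after their values were seen. Members and lists were chosen with earlier results of these data known. The contrast of 48 h with 24 h and the setting without the E14 arrays at 12 and 24 h were added after the data were seen. Promoter sequences and gene order came from RefSeq (GRCh38.p14). Figures were drawn with matplotlib 3.10.9.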

Additional observations from a re-analysis of the deposited data

Results flagged for a closer look

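The responses of the EVI1 clones and the control lines at 48 h differed by the test of the difference in LY9 231124_x_at (-1.51), 215967_s_at (-1.11) and 210370_s_at (-1.11) and in CD84 230391_at (-1.10, adjusted p = 0.0484 by limma). All 4 calls were lost without E10 and without E14, which leaves 1 array per group of the EVI1 clones. That of CD84 was also lost without either control line, and that of LY9 210370_s_at without U937T.

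The responses of the EVI1 clones at 48 and 24 h differed in CD244 220307_at (0.77), CD84 205988_at (-1.0) and CD84 244352_at (-1.15), a contrast chosen after the data were seen. All 3 calls were lost without E10, without E14 and with the E14 arrays of 12 and 24 h left out.

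In SLAMF7 219159_s_at, both EVI1 clones were higher without tet at 48 h and both control lines lower, and the mean responses differed by 0.68. This difference was not tested, since SLAMF7 was chosen on these values. SLAMF1 206181_at showed the opposite directions, lower in both EVI1 clones and higher in both control lines. Its responses differed by -0.62, and the test of the difference did not pass (adjusted p = 0.281 by limma).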

How the results depend on the processing

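The 24 called values were recomputed 285 times under the alternatives. Of these, 223 stayed called, 62 were no longer called and 0 changed direction. Of 172 values without a call, 13 of 1712 recomputations were called. Counts below are of member probe sets called. They tell what a setting kept of the main calls and are not compared with the share over all probe sets. With a mean of at least 5, 6 were called at 48 h in the EVI1 clones, against 10. LY9 210370_s_at, CD84 211192_s_at, SLAMF8 219385_at and SLAMF1 1555626_a_at, called in the main fit, lay under that mean and were not tested. Fewer member probe sets were tested with 1 probe set per gene as well, at most 1 for each member gene. With 1 probe set per gene there was 1 at 24 h, 4 at 48 h, 1 in the control lines, 1 in the difference of responses and 1 between E10 and E14 (CD84 205988_at, also the 1 called with an intensity trend and robust variances). For time in culture, 0 were called with arrays centred, with the 3 prime to 5 prime difference as covariate and without the E14 arrays at 12 and 24 h, against 1. Without those E14 arrays, 0 were called at 24 h and 0 for 48 h against 24 h. With only the arrays at 48 h, 1 was called in the control lines and 2 in the difference of responses.

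Without the replicate block (the cell line), 0 were called for time in culture, 9 at 48 h and 3 in the difference of responses. For E10 against E14 this fit was not run.

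Leaving out 1 line gave 0 to 1 calls at 24 h, 5 to 6 at 48 h, 0 to 0 for 48 h against 24 h, 0 in the control lines, 0 to 3 in the difference of responses and 0 to 1 for time in culture. Over all probe sets, 490 were higher and 559 lower in the difference of responses, against 172 and 158 with only the arrays at 48 h. Leaving out E10 gave 59 higher and 37 lower, E14 54 higher and 26 lower, P2 263 higher and 272 lower, U937T 142 higher and 167 lower, and the E14 arrays of 12 and 24 h 264 higher and 280 lower. In the EVI1 clones at 48 h, 4642 were higher and 4106 lower, against 1636 and 1624 without E10, 1707 and 1221 without E14, and 2854 and 2623 with 1 probe set per gene. At 24 h, 1921 were higher and 2258 lower, against 282 and 292 without E10, 318 and 230 without E14, and 407 and 455 without the E14 arrays. In the control lines, 1178 were higher and 930 lower, against 593 and 263 with only the arrays at 48 h, 243 and 99 when P2 was left out, 471 and 199 when U937T was, and 739 and 469 without the E14 arrays. For 48 h against 24 h, 359 were higher and 221 lower, against 9 and 2 without E10, 18 and 16 without E14, and 39 and 25 without the E14 arrays. For time in culture, 997 were higher and 1208 lower, against 318 and 430 with the integrity covariate, 553 and 727 with 1 probe set per gene, 100 and 86 without E10, and 509 and 856 without E14. Between E10 and E14, 25 were higher and 12 lower, against 72 and 45 with the trend, 43 and 31 with a mean of at least 5, 23 and 34 with 1 probe set per gene, 2 and 2 with the covariate, and 0 without the E14 arrays. At 12 h the 8 calls became 0 to 17, at 6 h the 0 calls 0 to 8, and between line kinds with tet the 0 calls 0 to 39 (31 and 8 with the trend). The causes were not tested.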
